A study of Mus musculus with 28 samples.

Results

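Subchondral bone, the bone plate under the joint cartilage, was taken from the medial tibial plateau of male wild type C57BL6 mice 6 weeks or 1 week after a sham operation on the knee. The 8 sham bone arrays, 4 at 6 weeks and 4 at 1 week, were those with subchondral bone as their source and with a sham operation and the week in their titles, out of 28 arrays in the series. Each bone array held RNA of 1 mouse, extracted from sections cut out by laser after the bone had been decalcified, and was read on an Agilent mouse microRNA array. The other arrays used here were 4 of bone 6 weeks and 4 of bone 1 week after destabilization of the medial meniscus (DMM), in which the ligament that holds the meniscus to the tibia is cut, and 3 of sham cartilage at 6 weeks and 3 at 1 week, each a pool of 3 mice.

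All mice were operated on at 10 to 12 weeks of age, in both knees. In the sham operation the joint was opened and the ligament was seen but left whole, so both sham groups carried a surgical wound and no group here had no operation. Mice at 6 weeks were therefore also older than mice at 1 week. Their animal numbers ran from 10 to 26 at 6 weeks and from 66 to 96 at 1 week, and those of DMM bone from 5 to 25 at 6 weeks and from 67 to 93 at 1 week. Time after surgery, age and any difference in handling that went with these number ranges cannot be told apart.

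MicroRNAs (miRNAs) are short RNAs that pair with messenger RNAs, mainly through the seed at bases 2 to 8, and lower their translation or stability. Subchondral bone holds osteoblasts, osteocytes and osteoclasts together with marrow spaces filled with blood-forming cells and vessels. Several miRNAs mark these cells: miR-451a and miR-486a-5p are abundant in red cells and their precursors, miR-223-3p in myeloid cells including osteoclast precursors, and miR-126a-3p in endothelium. In such bulk tissue, fewer cells of a type and less of a miRNA per cell cannot be told apart.

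Sequences of miRNAs with the smallest unadjusted p in the week comparison are shown first, because many on the higher side hold runs of G and U. Of the 12 rows named in each direction, 10 higher and 7 lower ones matched a sequence that is printed. miR-486a-5p and miR-6971-5p, higher, and miR-378a-3p, miR-669f-3p, miR-23b-3p, miR-3075-5p and miR-669c-3p, lower, are named only. All are mature sequences from RefSeq (mouse build GRCm38.p6), written 5′ to 3′ with the seed in capitals. Those lower at 6 weeks were:
miR-378d: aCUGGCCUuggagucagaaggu
miR-378b: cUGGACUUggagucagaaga
miR-362-5p: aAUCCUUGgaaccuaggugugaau
miR-24-3p: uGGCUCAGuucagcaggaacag
miR-223-3p: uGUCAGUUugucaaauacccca
miR-10a-5p: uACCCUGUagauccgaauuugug
miR-674-3p: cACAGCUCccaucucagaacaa

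miR-378d (chr10:126710355-126710376, minus strand) and miR-378b (chr11:88352839-88352858, plus strand, in the span of Msi2) share a run of 14 bases, cuuggagucagaag, so their probes may share signal, and the miR-378 values are not independent of each other. miR-362-5p lies at chrX:7242019-7242042 on the minus strand in the span of Clcn5, a chloride transporter gene, and miR-223-3p at chrX:96242884-96242905 on the plus strand. miR-24-3p is encoded at chr8:84208875-84208896 and at chr13:63301251-63301272, both on the plus strand. miR-10a-5p lies at chr11:96317186-96317208, on the plus strand in the span of Hoxb3, and miR-674-3p at chr2:117185186-117185207 on the plus strand. 

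Those higher at 6 weeks, with miR-669n of the Sfmbt2 list and miR-451a beside them, were:
miR-1187: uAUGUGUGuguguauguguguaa
miR-574-5p: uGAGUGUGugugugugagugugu
miR-3082-5p: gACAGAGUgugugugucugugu
miR-669n: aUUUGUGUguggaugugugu
let-7k: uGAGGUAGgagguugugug
miR-539-5p: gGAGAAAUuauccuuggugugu
miR-3064-5p: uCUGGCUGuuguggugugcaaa
miR-3097-5p: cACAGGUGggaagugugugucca
miR-6409: uGCGGGUGaggaugugugcuccu
miR-6902-3p: cCAUGUGAuguguggguucag
miR-5709-3p: aAAGUCUUaaggguguguauug
miR-451a: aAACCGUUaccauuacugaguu

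miR-1187 lies at chr5:82798964-82798986 on the minus strand, miR-574-5p at chr5:64970328-64970350 on the plus strand in the span of Fam114a1, and miR-3082-5p at chr17:25831406-25831427 on the minus strand. let-7k carries the let-7 seed and lies at chr5:147283257-147283275 on the minus strand. miR-539-5p lies at chr12:109728136-109728157 on the plus strand, in the imprinted Dlk1-Dio3 miRNA cluster. miR-3064-5p (chr11:106782736-106782757, minus strand) lies in the span of the RNA helicase gene Ddx5, miR-3097-5p (chr5:35021050-35021072, plus strand) in that of Rgs12, miR-6902-3p (chr1:93346135-93346155, plus strand) in that of Ppp1r7 and miR-5709-3p (chr17:67026162-67026183, minus strand) in that of Ptprm. miR-669n lies at chr3:115979905-115979924, miR-6409 at chr10:76008993-76009015 and miR-451a at chr11:78073186-78073207, all on the plus strand. No 2 of the printed miRNAs share a seed, and the 10 named rows printed as higher, with miR-669n, hold a run of alternating G and U.

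No miRNA passed the threshold in sham bone between 6 weeks and 1 week. Of the 490 miRNA rows with a value on all 16 bone arrays, 0 passed an adjusted p of 0.05 by limma (0% of rows tested), and the smallest adjusted p was 0.414. At an unadjusted p under 0.05 there were 54 rows (11% of those tested), 36 higher (7.35%) and 18 lower (3.67%) at 6 weeks. With each array centred on its 75th percentile the same split was 86 higher and 8 lower. The 4 arrays of 6 weeks did not overlap the 4 of 1 week for 11 rows (2.24%), 7 of them higher (1.43%) and 4 lower (0.816%).

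Differences were small. They ran from -0.86 to 1.02 on the log2 scale, with a median absolute difference of 0.24 and a median SE of 0.23. Only 3 rows differed by 1 or more, all higher at 6 weeks. The median 95% interval was 0.98 wide, and 357 rows had an interval within 1 in both directions. For the remaining rows a difference of 1 on the log2 scale lay within the interval. The median of all rows was -0.09 in the deposited values and 0.03 when arrays were centred on their 75th percentile, and values near 0 have no fixed sign.

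Arrays of the same week were no more alike than arrays of different weeks. The median Pearson correlation over the 490 rows was 0.941 within the sham groups (0.809 to 0.975) and 0.943 between them (0.817 to 0.966). The array standing furthest from its group was 1-week replicate 1, with a mean correlation of 0.866 with the other 3. 1-week replicate 4 had 0.908, and 6-week replicate 3 had 0.927, the lowest of its group. The median SD per miRNA was 0.293 at 6 weeks and 0.348 at 1 week. Without 6-week replicate 3 it was 0.228, and without 1-week replicate 1 it was 0.237. Results are therefore also given without these arrays.

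The unadjusted counts rested on single arrays. Without 6-week replicate 3 they were 3 higher and 9 lower, without 1-week replicate 2 they were 0 higher and 7 lower, and without 1-week replicate 3 they were 2 higher and 18 lower. Without 1-week replicate 1 they were 63 higher and 97 lower, and 5 rows then passed an adjusted p of 0.05, all lower at 6 weeks.

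The smallest unadjusted p values belonged to miR-378a-3p and miR-378d of the miR-378 family, miRNAs known for their part in mitochondrial and lipid metabolism. miR-378a-3p had log2 signals of 6.93, 7.42, 6.93 and 7.02 in 6-week bone, against 7.26, 8.48, 7.87 and 8.03 in 1-week bone. miR-378d had 6.95, 7.00, 6.70 and 7.01 in 6-week bone, against 6.94, 8.28, 7.66 and 8.17 in 1-week bone. miR-378b had 6.43, 6.38, 5.85 and 6.40 in 6-week bone, against 6.20, 7.73, 6.99 and 7.57 in 1-week bone. For each of these miRNAs, 3 of the 1-week arrays lay above every 6-week array and 1-week replicate 1 lay among the 6-week values.

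The log2 differences were -0.84 ± 0.25 for miR-378a-3p, -0.85 ± 0.26 for miR-378d and -0.86 ± 0.30 for miR-378b (SE), that is 0.560, 0.554 and 0.552 of the 1-week level. Each had an adjusted p of 0.414 by limma. Without 1-week replicate 1 the differences were -1.05, -1.12 and -1.16, and all passed, with an adjusted p of 0.0429. miR-669f-3p, at -0.86, and miR-146b-5p, at -1.18, were the other rows that passed without that array. The opposite arm miR-378a-5p had -0.43 ± 0.24 (SE), and -0.24 without 1-week replicate 2.

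**Figure D1:**
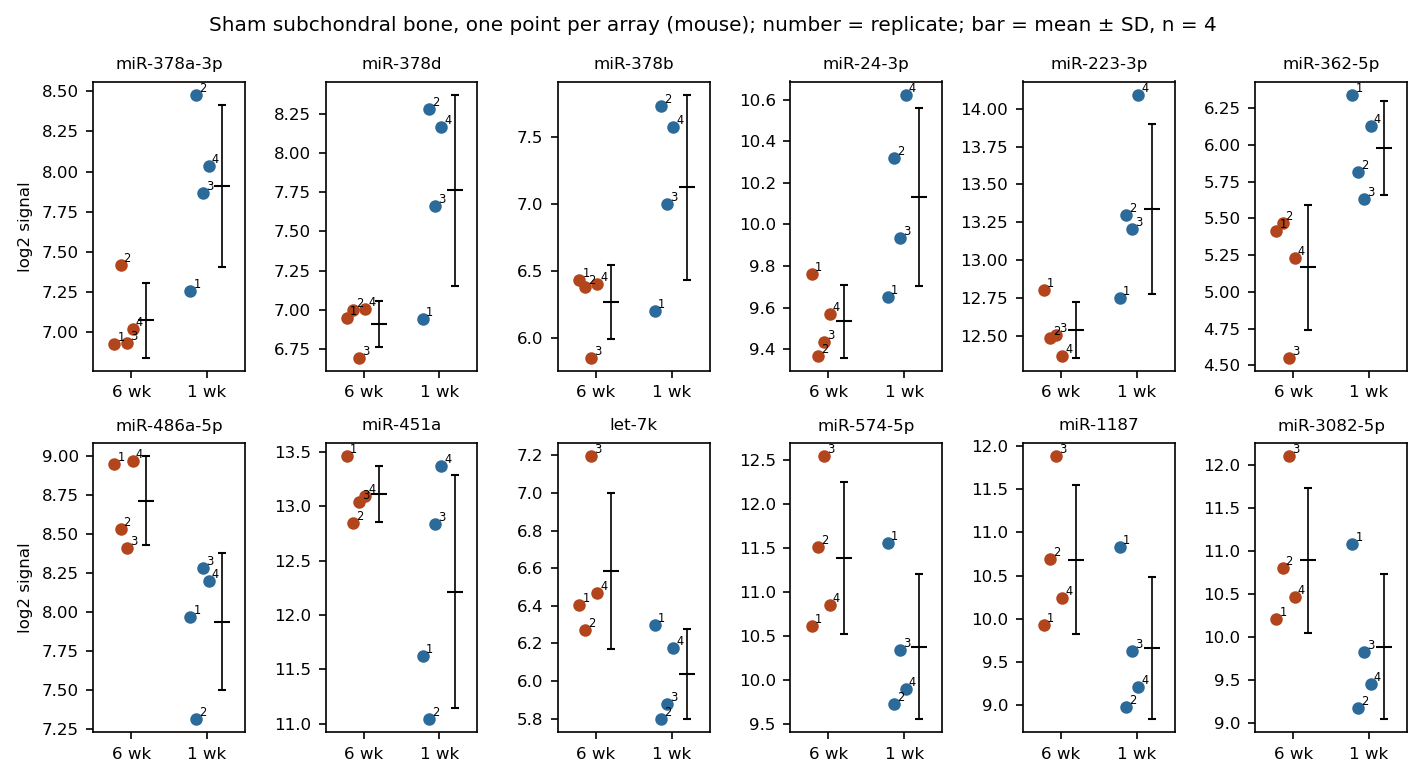
Log2 signal (y axis) of 12 miRNAs in sham bone at 6 weeks (left in each panel) and at 1 week (right), with 1 numbered point per array, the mean and the SD (n = 4). The miR-378 rows overlap only through 1-week replicate 1, and miR-574-5p, miR-1187 and miR-3082-5p are highest in 6-week replicate 3.

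miR-362-5p, encoded in an X-linked miRNA cluster, was 1 of the 4 lower rows whose groups did not overlap (0.816% of all rows). It had 5.42, 5.47, 4.55 and 5.23 in 6-week bone, against 6.34, 5.81, 5.63 and 6.13 in 1-week bone. All 6-week arrays lay below all 1-week arrays, and the log2 difference was -0.81 ± 0.25 (SE). Without 6-week replicate 3 the difference was -0.61, and with 1-week replicate 1 left out as well it was -0.48. miR-362-5p was among the dimmer rows, under the median level. Its other arm, miR-362-3p, had -0.47 ± 0.28 (SE), and -0.19 without 1-week replicate 4.

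miR-24-3p is made from 2 clusters with members of the miR-23 and miR-27 families, which are studied in osteoblast and endothelial biology. It had 9.76, 9.37, 9.43 and 9.57 in 6-week bone, against 9.65, 10.32, 9.93 and 10.62 in 1-week bone. Here too 1-week replicate 1 lay within the 6-week range, and the log2 difference was -0.60 ± 0.21 (SE). All 5 measured rows of the 3 families were negative, with -0.50 for miR-23b-3p, -0.35 for miR-23a-3p, -0.76 for miR-27b-3p and -0.64 for miR-27a-3p. Of the 5, 2 were lower at an unadjusted p under 0.05, beside 3.67% of all rows. The median was -0.60, against -0.09 over all rows. Without 1-week replicate 4 that median was -0.34, with -0.34 for miR-23b-3p, -0.23 for miR-23a-3p, -0.36 for miR-27b-3p and -0.27 for miR-27a-3p.

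miR-223-3p, which restrains granulocyte production and is also expressed in osteoclast precursors, had 12.80, 12.49, 12.51 and 12.37 in 6-week bone, against 12.75, 13.30, 13.21 and 14.09 in 1-week bone. The 6-week arrays lay close together, and 1-week replicate 4 was far above them. The log2 difference was -0.79 ± 0.30 (SE), with an adjusted p of 0.414 by limma. miR-10a-5p, encoded among the Hox genes that set position along the body, had -0.70 ± 0.26 (SE), and the 4 rows of the miR-10 and miR-196 families had a median of -0.54. Without 1-week replicate 4, miR-10a-5p had -0.44, this list median was -0.29 and miR-223-3p had -0.54.

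The remaining lower rows of the 12 named by their unadjusted p were miR-674-3p (-0.72), miR-669f-3p (-0.66), miR-3075-5p (-0.55) and miR-669c-3p (-0.45). All 12 kept a negative difference under every alternative run, though they were picked for a small p in these same arrays.

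The 3 largest differences in the data were those of miR-1187, miR-3082-5p and miR-574-5p, all higher at 6 weeks. miR-1187 had 9.93, 10.69, 11.88 and 10.24 in 6-week bone, against 10.83, 8.98, 9.63 and 9.21 in 1-week bone. miR-574-5p, known to bind the RNA-binding protein CUGBP1, had 10.61, 11.51, 12.54 and 10.85 in 6-week bone, against 11.55, 9.72, 10.33 and 9.89 in 1-week bone. miR-3082-5p had 10.21, 10.80, 12.11 and 10.46 in 6-week bone, against 11.09, 9.17, 9.83 and 9.46 in 1-week bone. In each, 6-week replicate 3 was the highest array and 1-week replicate 1 the highest of its week, so the groups overlapped.

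Their log2 differences were 1.02 ± 0.43, 1.00 ± 0.42 and 1.01 ± 0.43 (SE), in the order miR-1187, miR-574-5p and miR-3082-5p, that is 2.03, 2.00 and 2.01 times the 1-week level. Without 6-week replicate 3 they were 0.62, 0.62 and 0.61. The opposite arm miR-574-3p had -0.14 ± 0.16 (SE), a difference smaller than its SE, and the arms were not tested against each other. The other named rows on the higher side differed by less, with 0.55 for let-7k, 0.51 for miR-539-5p, 0.49 for miR-3097-5p, 0.48 for miR-6902-3p and miR-5709-3p, 0.47 for miR-3064-5p, and 0.43 for miR-6971-5p and miR-6409. Without 6-week replicate 3, miR-539-5p had 0.33, miR-5709-3p 0.32, miR-3097-5p and miR-3064-5p 0.31, and miR-6409 0.29.

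let-7k had 6.40, 6.27, 7.20 and 6.47 in 6-week bone, against 6.30, 5.80, 5.88 and 6.17 in 1-week bone. Its difference was 0.35 without 6-week replicate 3, which was its highest array. The 10 listed rows of the let-7 family had a median of -0.22, or -0.09 without 1-week replicate 4, and 0 had an unadjusted p under 0.05. Of these 9 were negative and let-7j had 0.24.

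**Figure D2:**
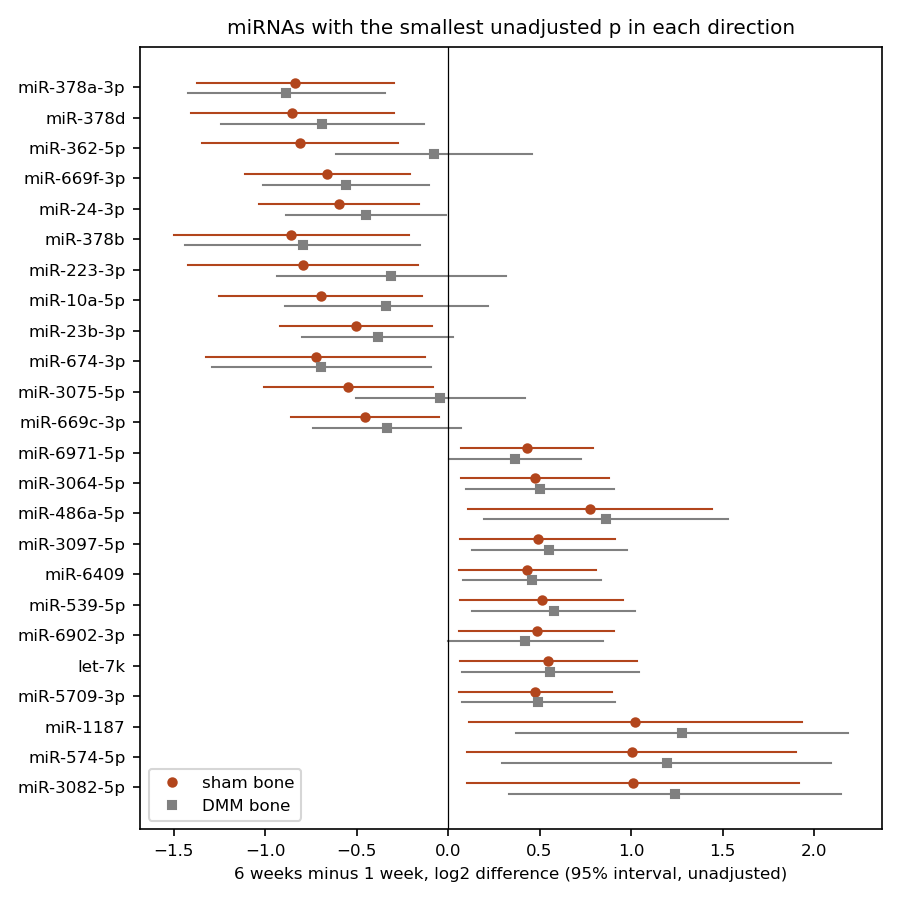
Log2 difference, 6 weeks minus 1 week (x axis), with its unadjusted 95% interval for the 24 miRNAs named by their unadjusted p (rows), in sham bone (circles) and in DMM bone (squares). All 24 have the same sign in both operations, and miR-362-5p and miR-3075-5p are near 0 in DMM bone.

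Many rows on the higher side shared a sequence feature. Of the 490 rows 399 matched a RefSeq mature sequence, and the run GUGUG was searched for in the RNA letters of each, on the mature strand. It was chosen after the values were seen, so its counts are a description. It was present in 26 of the 399 (6.52%), and in 54 of 1679 mature mouse names in the table (3.22%). Among rows with an unadjusted p under 0.05 it was in 18 of 22 with a sequence on the higher side (81.8%) and in 1 of 11 on the lower side (9.09%), miR-362-5p. Among all other rows it was in 7 of 366 (1.91%).

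The median log2 difference was 0.49 for the 26 rows with the motif and -0.13 for the 373 without it. The 9 rows with the longer run GUGUGUG, which are among the 26, had a median of 0.96. All 9 were on the higher side at an unadjusted p under 0.05, beside 7.35% of all rows. Without 6-week replicate 3 the median of these 9 was 0.57, and only 3 of all 490 rows were still higher at that p. Without 1-week replicate 2 the count of higher rows among all 490 was 0. The motif median was 0.32 without 6-week replicate 3, 0.56 without 1-week replicate 1, and 0.49 to 0.61 under the other scalings. Averaged over the 26 rows, the log2 signal was 7.17, 7.27, 8.04 and 7.30 on the 6-week arrays, against 7.49, 6.75, 6.86 and 6.92 on the 1-week arrays. 6-week replicate 3 was the highest and 1-week replicate 1 the second highest of all 8. Rows with such alike sequences may share signal on an array, and the 26 are not independent measurements. The part of the array's chemistry in this pattern was not tested.

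**Figure D3:**
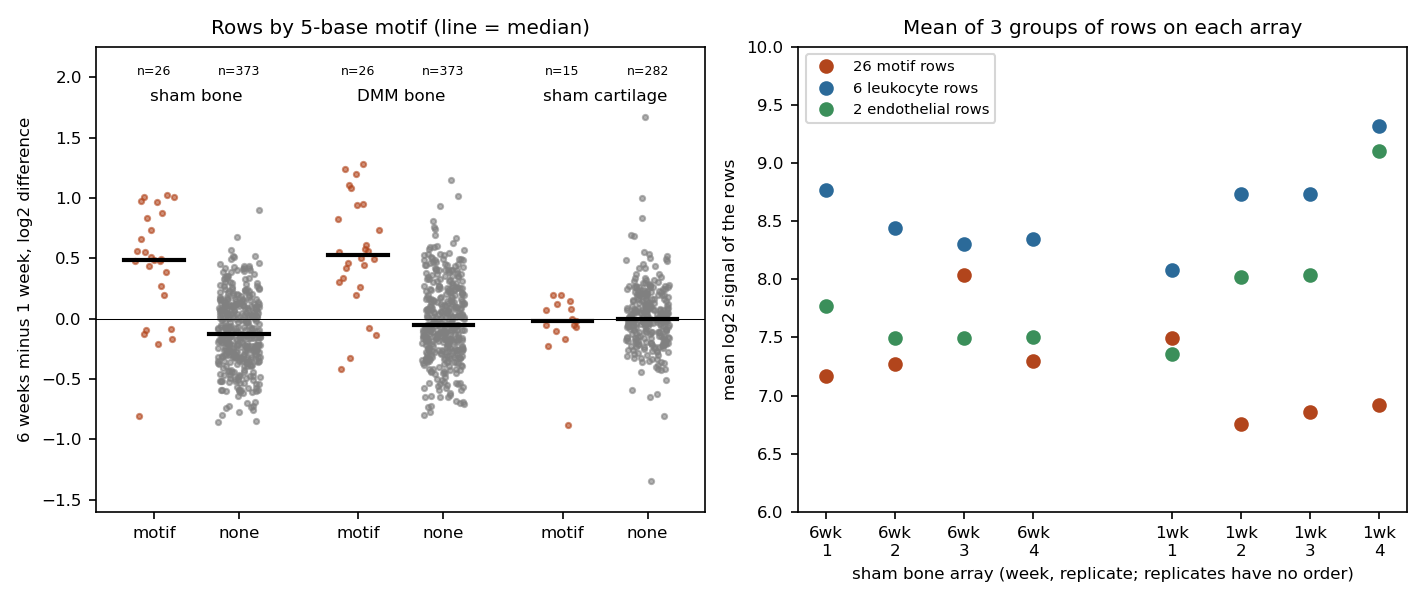
Left: log2 difference, 6 weeks minus 1 week, of rows with and without the GUGUG motif in sham bone, DMM bone and sham cartilage, with 1 point per row and a line at the median. Right: mean log2 signal of the 26 motif rows, the 6 leukocyte rows and the 2 endothelial rows on each sham bone array. The motif rows are highest in 6-week replicate 3. Both cell type lists are highest in 1-week replicate 4, which also has the highest mean over all rows.

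The Sfmbt2 list joins miRNAs encoded within the Polycomb gene Sfmbt2 to related ones at other loci. Of its rows, miR-466j and miR-669n held the GUGUG motif. The rows miR-466i-3p, miR-466q and miR-467f did not, and the others matched no sequence, so their motif is not known here. Of 32 measured rows 12 were higher and 3 lower at an unadjusted p under 0.05, and 0 passed the adjusted threshold, with a median of 0.38, beside 7.35% higher and 3.67% lower over all rows. The 19 5p rows had a median of 0.53, with 10 higher and 0 lower, and the 8 3p rows had -0.35, with 0 higher and 3 lower. The difference between the arms was not tested. miR-466i-5p had 11.87, 12.87, 13.88 and 12.10 in 6-week bone, against 12.91, 11.02, 11.66 and 11.16 in 1-week bone, a difference of 0.99 ± 0.44 (SE). miR-669n, which is printed above, had 0.97 ± 0.42 (SE). For miR-669f the 5p arm had 0.53 ± 0.24 and the 3p arm -0.66 ± 0.21 (SE). Without 6-week replicate 3 the list median was 0.18, the 5p median 0.30, miR-466i-5p 0.59, miR-669n 0.59 and miR-669f-5p 0.30.

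Among red cell miRNAs, miR-486a-5p was the row whose groups did not overlap, 1 of 7 such higher rows among all 490 (1.43%). It had 8.95, 8.53, 8.41 and 8.97 in 6-week bone, against 7.97, 7.31, 8.28 and 8.20 in 1-week bone. All 6-week arrays lay above all 1-week arrays, and the difference was 0.78 ± 0.31 (SE), with an adjusted p of 0.414 by limma. miR-451a, cut by Argonaute 2 rather than Dicer, had 13.46, 12.85, 13.04 and 13.09 in 6-week bone, against 11.62, 11.04, 12.83 and 13.37 in 1-week bone. The 6-week arrays lay within a narrow range while the 1-week arrays spread widely, and the difference was 0.90 ± 0.44 (SE). All 5 measured erythroid rows were positive, with a median of 0.20, and 1 was higher at an unadjusted p under 0.05, beside 7.35% of all rows. The mean of the 5 rows ranged from 7.76 to 8.49 in 6-week bone and from 6.99 to 8.52 in 1-week bone. The list median was 0.06 without 6-week replicate 1 and 0.76 without 1-week replicate 4. miR-451a had 0.50 without 1-week replicate 2.

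Leukocyte miRNAs had no shared direction. Of 6 rows 3 were positive and 3 negative, with a median of -0.24. Only 1, miR-223-3p, was lower at an unadjusted p under 0.05, beside 3.67% of all rows, and 0 were higher. miR-142a-3p, found in all blood cell lineages, had -0.47 ± 0.41, and miR-150-5p, abundant in mature lymphocytes, had 0.26 ± 0.32 (SE). The leukocyte mean ranged from 8.30 to 8.77 in 6-week bone and from 8.08 to 9.32 in 1-week bone, with replicate 4 at the top of the range. That array was also the brightest over all 490 rows, with a mean of 7.01, against 6.73 to 6.90 on the other sham bone arrays. The 26 motif rows had a mean of 6.92 on it, below their mean on every 6-week array. Why groups of rows differed on this array was not tested. The 2 arms of miR-126a, an endothelial miRNA, had -0.51 ± 0.28 for 3p and -0.61 ± 0.32 for 5p (SE), and their mean ranged from 7.50 to 7.77 in 6-week bone and from 7.35 to 9.10 in 1-week bone. Without 1-week replicate 4 the leukocyte median was 0.04, miR-142a-3p had 0.03 and the endothelial median was -0.24. miR-150-5p had 0.04 without 6-week replicate 1.

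Of the cartilage miRNAs only miR-140-3p was compared between tissues, and it had lower values on the bone arrays than on the cartilage arrays. miR-140-3p, abundant in chondrocytes, ranged from 9.04 to 9.98 in sham bone and from 13.4 to 13.7 in the 6 sham cartilage arrays, although it is not established that both tissues were normalized together. Within sham bone miR-140-3p had -0.38 ± 0.21, miR-140-5p -0.54 ± 0.35 and miR-455-3p -0.43 ± 0.26 (SE). Their mean ranged from 7.32 to 7.74 in 6-week bone and from 7.25 to 8.57 in 1-week bone, again with replicate 4 at the top. Without that array miR-140-3p had -0.25, miR-140-5p -0.15, and the median of the 3 rows was -0.25, against -0.43 with it. Of the 3 muscle rows only miR-206-3p, a skeletal muscle miRNA, had an unadjusted p under 0.05. It was on the higher side, beside 7.35% of all rows, at 0.56 ± 0.24 (SE), and had 0.34 without 6-week replicate 3. The lists held no miRNA that defines osteoblasts or osteocytes, so the bone label was set against cartilage and marrow markers only. Whether a varying share of marrow, vessel or cartilage in the cut sections contributed to the differences was not tested.

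**Figure D4:**
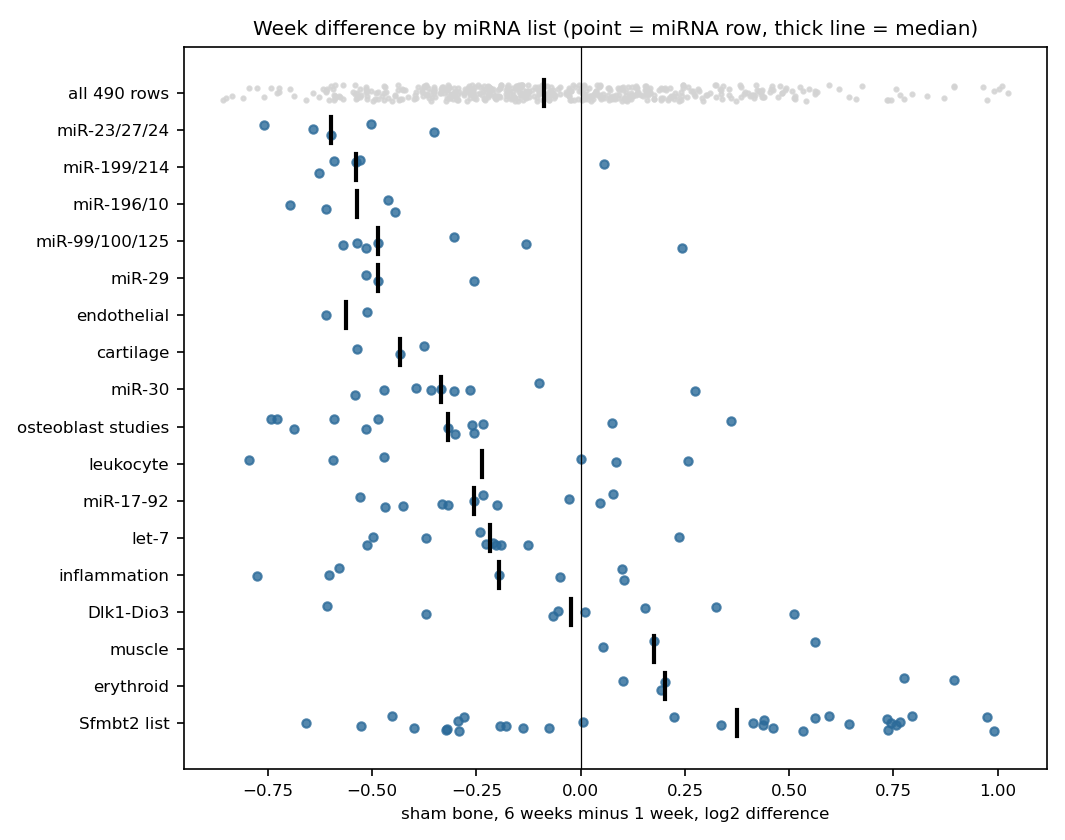
Log2 difference in sham bone, 6 weeks minus 1 week (x axis), of the members of 17 miRNA lists and of all 490 rows, with 1 point per row and a thick line at the median. Most list medians lie left of 0, and those of the erythroid, muscle and Sfmbt2 lists lie right of it. The Sfmbt2 rows lie on both sides, 19 positive and 13 negative.

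miRNAs named in studies of osteoblasts and of osteoclasts had mostly negative differences, 11 of 13 and 9 of 11 rows, beside 58.2% of all rows, and none passed. Of 13 rows from osteoblast studies 0 had an unadjusted p under 0.05, with a median of -0.32. The most negative were miR-218-5p, which promotes osteoblast differentiation through Wnt signalling, at -0.69 ± 0.37, miR-338-3p at -0.73 and miR-322-5p at -0.74. The 2 positive rows were miR-3960 at 0.36 and miR-2861 at 0.08. Of 11 rows from osteoclast studies 2 were lower at an unadjusted p under 0.05, miR-223-3p and miR-125a-5p at -0.57, beside 3.67% of all rows, and the median was -0.51. The 2 positive osteoclast rows, miR-146a-5p and miR-155-5p, had 0.10 each. The lists share miR-29, miR-34a and miR-503 rows. Without 1-week replicate 4 the medians were -0.07 for osteoblast and -0.08 for osteoclast studies, and miR-218-5p had -0.25, miR-338-3p -0.29 and miR-322-5p -0.29.

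Inflammation-induced miRNAs had a median of -0.20 over 7 rows. miR-146b-5p, which targets signalling through Toll-like receptors, had 6.57, 6.37, 6.12 and 6.50 in 6-week bone, against 5.94, 7.32, 7.03 and 8.36 in 1-week bone. The 1-week arrays lay on both sides of the 6-week ones, and the difference was -0.78 ± 0.35 (SE). miR-132-3p had -0.60 ± 0.26, miR-21a-5p, raised in many injuries, -0.58 ± 0.31, miR-146a-5p 0.10, and miR-155-5p 0.10, and the last 2 were -0.15 and -0.08 without 1-week replicate 1. Without 1-week replicate 4, miR-146b-5p had -0.38 and miR-21a-5p -0.24. The hypoxia marker miR-210-3p had -0.21, and 0.01 without 6-week replicate 3. The 2 rows of miR-221 and miR-222 had a median of -0.43, and -0.18 without 1-week replicate 4.

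Several other miRNA families and clusters also had negative medians, like most of the lists. The 3 miR-29 rows, which target collagen mRNAs, had -0.49, and the 5 miR-199 and miR-214 rows -0.54. The miR-99, miR-100 and miR-125 rows had a median of -0.49 over 7 and the miR-30 family -0.33 over 9. The Dlk1-Dio3 cluster had a median of -0.02 over 8 rows, whose sign turned to 0.10 after centring on the 75th percentile. The other list medians in this paragraph kept their sign under the scalings run, but 1 array carried much of their size. Without 1-week replicate 4 they were -0.06 for miR-29, -0.28 for miR-199 and miR-214, -0.29 for miR-99, miR-100 and miR-125, and -0.16 for miR-30.

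Week differences in sham bone and in DMM bone were correlated across rows. In DMM bone 0 of 490 rows passed (0%), and 95 had an unadjusted p under 0.05 (19.4%), 71 higher (14.5%) and 24 lower (4.9%). Leaving out 1 DMM array at a time, that count was 27 without 6-week replicate 4, 28 without 6-week replicate 3, 49 without 1-week replicate 1 and 63 without 1-week replicate 2, and it was 88 higher and 39 lower without 6-week replicate 1. The groups did not overlap for 55 rows (11.2%), with 6.94% of all rows higher and 4.29% lower, and the median SD was 0.307 at 6 weeks and 0.182 at 1 week. Over the 490 rows the sham and DMM differences had a Pearson correlation of 0.861 and a Spearman correlation of 0.833, and 85.3% had the same sign. The 2 comparisons share no array, but they share the arrays' design and the ranges of animal numbers, and rows are not independent. The correlation was 0.665 without sham 6-week replicate 3 and 0.751 without sham 1-week replicate 4.

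The difference between the operations was tested in the same fit. For sham minus DMM 0 of 490 rows passed, and 1 had an unadjusted p under 0.05 (0.204%), miR-1971 at -0.80, with an adjusted p of 1.00 by limma. All 24 named miRNAs had the same sign in DMM bone, beside 85.3% of all rows. Of the 24, 17 had an unadjusted p under 0.05 there, beside 19.4% of all rows. Among the 24, the miR-378 rows are not independent measurements, and neither are the motif rows. miR-378b had 6.26, 6.29, 5.71 and 6.07 in 6-week DMM bone, against 7.58, 6.54, 6.75 and 6.64 in 1-week DMM bone, with no overlap and a difference of -0.80 ± 0.30 (SE). miR-574-5p had 11.41, 11.33, 12.33 and 11.92 in 6-week DMM bone, against 10.08, 10.42, 10.88 and 10.82 in 1-week DMM bone, and differed by 1.20 ± 0.42 (SE). miR-362-5p had -0.81 in sham bone and -0.08 in DMM bone, the widest gap among the 24, and the difference between them was -0.73 (95% interval -1.49 to 0.02). The median 95% interval for sham minus DMM was 1.38 wide.

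The motif rows had a median of 0.53 in DMM bone and, over the 15 measured there, -0.02 in sham cartilage. In DMM bone the motif was in 16 of 47 rows with a sequence on the higher side at an unadjusted p under 0.05. On the lower side it was in 0 of 20. Among all rows with a sequence it was in 26 of 399 (6.52%). The share on the higher side was smaller than in sham bone, where the motif was in 18 of 22 (81.8%). The difference between these shares was not tested.

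**Figure D5:**
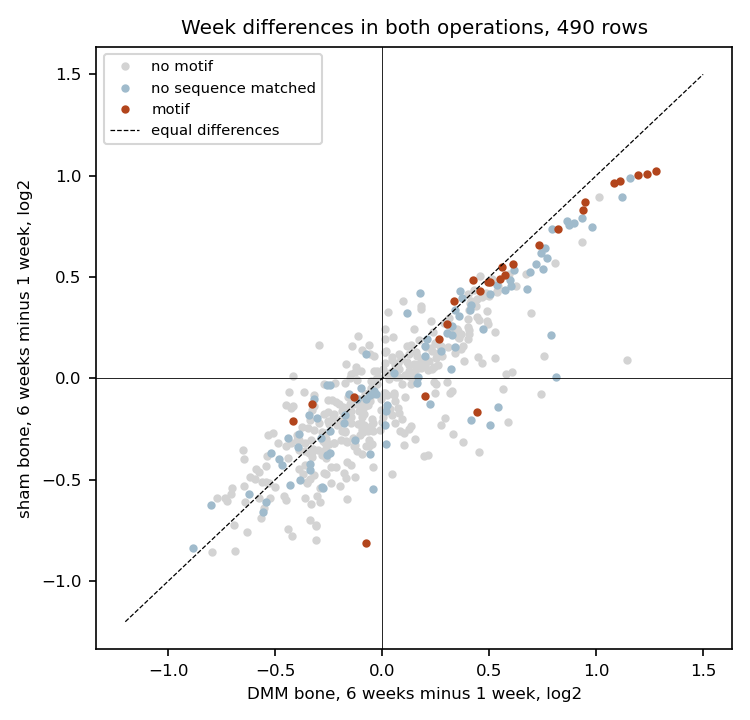
Log2 difference, 6 weeks minus 1 week, in sham bone (y axis) against DMM bone (x axis) for 490 rows, coloured by the GUGUG motif. Most rows lie along the line of equal differences (Pearson correlation 0.861), with the motif rows at its upper end.

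Sham cartilage, taken at the same weeks, gave other values. There 1 of 438 rows passed (0.228%), miR-1957b at 0.56 with an adjusted p of 0.0269 by limma, and 9.36% of rows were higher and 8.22% lower at an unadjusted p under 0.05. Over 359 shared rows the bone and cartilage differences had a Pearson correlation of -0.04 and a Spearman correlation of -0.13. Both erythroid rows measured in the 2 tissues were positive in each, with 1.67 for miR-451a and 0.41 for miR-486a-5p in cartilage. The test of the difference between tissues, on all 28 arrays, passed 0 of 359 rows, and 20 had an unadjusted p under 0.05 (5.57%), 2 higher (0.557%) and 18 lower (5.01%) in bone. That split turned with the scaling, to 24 higher and 8 lower with arrays centred on their 75th percentile, 13 and 10 after quantile normalization, and 9 and 11 when centred on the median. miR-223-3p had the smallest, with -0.79 in bone and 0.83 in cartilage, a difference of -1.63 (95% interval -2.65 to -0.60) and an adjusted p of 0.529 by limma. miR-378b had a difference of -1.13, miR-10a-5p -0.93, miR-24-3p -0.74 and miR-149-5p -0.73. Cartilage arrays were pools of 3 mice and bone arrays single mice, and the tissues shared 1 estimate of spread in this test.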

How the data were processed

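Total RNA was labelled with Cyanine 3-pCp and hybridised to 1-colour Agilent mouse miRNA arrays (release 21), per the labels' protocols. The authors deposited a table of processed values, taken here as log2 signals from their range, 4.08 to 16.7. limma 3.20.9 is named in the submitters' processing notes, and neither background correction nor normalization is stated in the sources used. Scanner background was not used, so precision rests on the number of arrays and on the spread between mice.

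Rows with a value on all 16 bone arrays (490 of 569) were tested in limma 3.58.1 (R 4.3.3). A group-means model on these 16 arrays, without covariates, gave moderated two-sided tests, adjusted by Benjamini-Hochberg over all rows at 0.05. The tissue comparison used all 28 arrays over 359 rows. The scripts were tested on simulated data. Named rows were the 12 with the smallest unadjusted p in each direction, since under 5 passed, and members of miRNA lists. The members and lists were chosen with earlier results of these data known. Alternatives changed scaling, filter, prior, weights and arrays. Motif and sequences came from RefSeq tables (GRCm38.p6).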

Additional observations from a re-analysis of the deposited data

Results flagged for a closer look

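With 2 groups of 4 values for each of 62 miRNAs, 3 groups held an array far from the other 3, measured as its gap to the nearest value over the range of the group. Chance gives about 1 in 20 such groups, which is more than were found. miR-378b was at 5.85 in sham 6-week replicate 3, with the nearest value at 6.38. miR-3064-5p was at 6.45 in the same array, with the nearest value at 5.85. miR-669c-3p was at 5.70 in sham 6-week replicate 4, with the nearest value at 5.34.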

How the results depend on the processing

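Of 17 alternatives run for sham bone, 15 left 0 miRNAs past an adjusted p of 0.05. Array weights gave 140 (78 higher, 62 lower), among them 22 of the 24 named, with weights from 0.187 for sham 1-week replicate 1 to 6.21 for DMM 1-week replicate 4, and their estimation stopped before its tolerance was met. Leaving out 1 array gave 0 to 5. The 54 rows at an unadjusted p under 0.05 became 94 with centring on the 75th percentile, 33 once the dimmer rows, under the median level, were dropped, 209 with array weights and 25 with only the 8 sham arrays. Leaving out 1 array gave 7 to 160, and leaving out 6-week replicate 3 and 1-week replicate 1 together, chosen after seeing the data, gave 84. DMM bone gave 274 with array weights. None of the 24 miRNAs named by their unadjusted p changed sign under any alternative run, while some list members did, such as miR-142a-3p without 1-week replicate 4. The 24 were picked for a small p in these same arrays. Changing only the prior, the filter or the other groups in the fit left the differences as they were. Their kept sign was therefore in part fixed by the choice. No paired analysis was possible because different mice were used at the 2 times and the bone titles share no replicate numbers. The number of arrays, 4 a group, limits what small differences could be detected.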
